A study of Mus musculus with 19 samples.

Results

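The genes described here are 35 markers of immune cells in brown adipose tissue (BAT) of mice, taken from a list of gene names drawn up with earlier results of these data known, and 32 of them were analysed among the 20554 genes of the deposited table. They cover all leukocytes, macrophages, lipid-associated macrophages, granulocytes, T cells, cytotoxic T and NK cells, B and plasma cells and dendritic cells. Of the 32, 31 were found by symbol and Adgre1 by its Ensembl identifier under the older symbol Emr1, while Cd68, Ms4a1 and Jchain were not analysed here. BAT burns fuel to make heat when norepinephrine reaches its adipocytes, and between those adipocytes sit resident macrophages, which clear dying cells and debris, with smaller numbers of lymphocytes, dendritic cells and granulocytes. Surface receptors such as CD45 (Ptprc), F4/80 (Adgre1) and CD3 are the usual tools for telling these cells apart, and transcripts of the same genes are read in whole tissue as a measure of how much of each cell type's RNA is present. In whole tissue, fewer cells of a type and less RNA per cell cannot be told apart.

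RNA-seq libraries came from male wild-type C57BL6J mice, all singly housed without food or bedding and with water. Young mice were 3 months old and old mice 24 months. In each age, mice were kept at room temperature (24°C; 5 young, 5 old) or placed in the cold (4°C; 5 young, 4 old). The labels give the exposure as 5 hr in one place and 24 hr in another. BAT from between the shoulder blades was taken. The labels speak of 10 young and 9 old mice, which matches the number of libraries. Age was compared in separate sets of libraries at each temperature.

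Depth limits what these markers can show. Values are log2(TPM + 1), where TPM is a transcript level scaled to the library's total and corrected for gene length. Because 1 was added before the logarithm, a difference in log2(TPM + 1) understates the change of a gene with low expression. Each read adds the same step to a gene's TPM in a library, so whole reads were recovered from the low values for 98.6% of the 16957 genes above 0, and these came to between 472323 and 6638748 reads per library. The median library had 1707475 in young mice at room temperature, 2166308 in young mice in the cold, 1077251 in old mice at room temperature and 1269006.5 in old mice in the cold. Between 11634 and 14928 genes were detected per library. In 4 libraries (young room temperature replicate 2, old room temperature replicate 1 and old cold replicates 1 and 2) the predicted gene Gm20594 was listed at 2391 to 2504 TPM, against 33784 to 72030 TPM in the other 15. These 4 libraries, called the low Gm20594 libraries here, make up 3 of the 9 old and 1 of the 10 young libraries. Checked against the labelled tissue, the lipid carrier Fabp4 stood at 12.01 to 13.12 and the uncoupling protein Ucp1 of brown adipocytes at 9.87 to 12.41 log2(TPM + 1). Skeletal muscle genes summed to between 0.685 and 1309 TPM, and 10 of 10 had lower means in old mice over both temperatures with 0 called. The part of muscle and of library kind in the marker results was not tested beyond the values given below.

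Among the markers, macrophage genes were the most abundant. Lyz2, the lysozyme of macrophages and neutrophils, had a median of 30.3 TPM over the 19 libraries and was the only marker with a median above 10 TPM. Of the others, 9 had a median of 1 to 10 TPM, led by Mrc1, the mannose receptor CD206 of tissue-resident macrophages (5.49 TPM), Csf1r, the receptor through which macrophages receive their survival signal (3.15 TPM), Cd163, the receptor that takes up haptoglobin-bound haemoglobin (3.06 TPM), and Adgre1 (2.82 TPM). The remaining 22 had medians under 1 TPM. In all, 13 markers were above 0 in every library. Lymphocyte and dendritic cell markers sat at the detection limit: the CD3 chains account for 13 (Cd3e), 20 (Cd3d) and 27 reads (Cd3g) over all 19 libraries, against 7141 reads of Lyz2.

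Old and young BAT were compared with limma, a linear model with a moderated two-sided test, and p-values were adjusted by the Benjamini-Hochberg method over all genes tested. Calls were made at 0.05 on the adjusted p, and counts at 0.25 are given beside them. At room temperature, 26 of the 32 markers had higher means in old mice and 6 lower, with a median difference of 0.18 against a median of 0.0013 over all genes tested. None was called (0 at 0.05 and 0 at 0.25), where 0% of the 16233 genes tested were called at 0.05 and 0.715% at 0.25. At an unadjusted p under 0.05, 7 markers were higher and 1 lower in old mice, a share of 25% against 7.81% of all genes. In the cold, in other libraries, all 32 markers had higher means in old mice, with a median difference of 0.34 against a median of -0.0042 over all genes. Again 0 were called by limma at either threshold (0.0186% and 0.161% of the 16134 genes tested were), and 13 markers were higher and 0 lower at an unadjusted p under 0.05, 40.6% of the markers against 5.26% of all genes. As all 32 were higher in the cold, the 26 from room temperature had to be among them, which is no separate result.

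**Figure D1:**
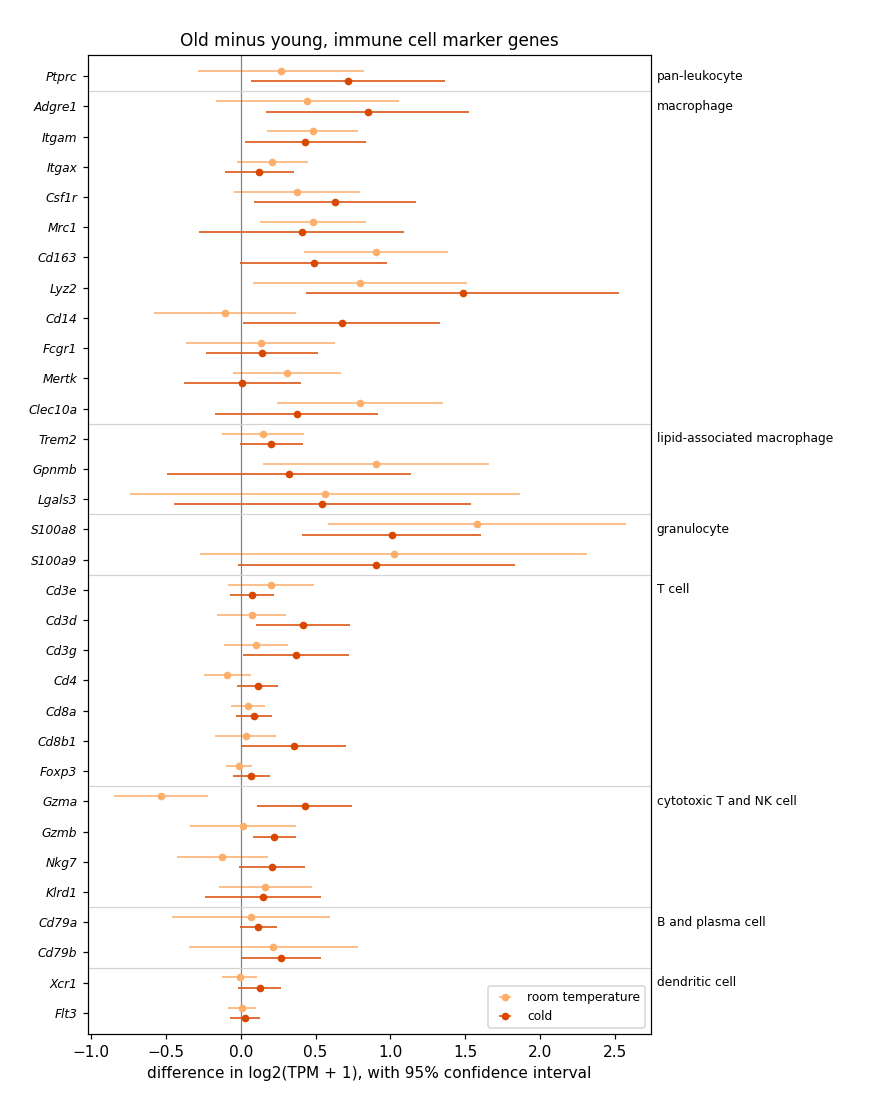
Difference between old and young mice in log2(TPM + 1) for the 32 markers, with 95% confidence intervals, at room temperature (light orange) and in the cold (dark orange), grouped by cell class. In the cold all 32 points lie to the right of 0, and at room temperature 26 do. The longest shifts belong to S100a8, Lyz2 and S100a9.

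Over both temperatures in one fit of the 19 libraries, 31 of the 32 markers had higher means in old mice, the exception being Gzma at -0.05. None was called at 0.05 (0.0944% of the 16957 genes tested were called in either direction). At 0.25, 4 markers were higher, S100a8, Lyz2, Cd163 and Itgam, which is 4 of 32 where 0.643% of all genes were called higher. At an unadjusted p under 0.05, 16 markers were higher and 0 lower, 50% of the markers against 6.06% of all genes, and 48.2% of all genes had a higher mean in old mice. With limma's voom on the recovered reads, which weights each value by its depth, the same 4 were called at 0.05 over both temperatures, where 103 genes of 16720 were higher and 3 lower. Voom called Itgam and Cd163 at room temperature, where 47 genes of 15996 were higher and 19 lower, and 0 markers in the cold, where 14 genes of 15897 were higher and 3 lower. Leaving out old cold replicate 4, the library with the second lowest number of reads, let Itgam, Cd163 and S100a8 pass 0.05 over both temperatures (3 in place of 0) and S100a8 pass in the cold (1 in place of 0). All genes called higher went from 14 to 180 over both temperatures and from 1 to 120 in the cold without that library. Over both temperatures, leaving out old room temperature replicate 1 let S100a8 pass (1 in place of 0), with 18 genes called higher in all.

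Library kind and depth move with age here. Summed over the 32 markers, the level was 107 to 160 TPM in the 3 old low Gm20594 libraries, 56.9 to 123 TPM in the other 6 old libraries, 26.3 to 82.2 TPM in the 9 other young libraries and 68.5 TPM in the 1 young low Gm20594 library. Without the 4 low Gm20594 libraries, 26 of 32 markers had higher means in old mice over both temperatures, with a median difference of 0.12, while the median of all genes moved to -0.067. S100a8 was then called at 0.05, where 13 of the 16824 genes tested were higher and 63 lower, against 14 and 2 in the main fit. At 0.25 Itgam, Cd163, Lyz2, S100a8 and S100a9 passed, and the share of all genes at 0.25 was not counted for this run. In the cold alone, where this leaves 2 old libraries, 25 of 32 were higher with a median of 0.086 against -0.16 over all genes. The median age difference was therefore smaller without these libraries, and most markers still had higher means in old mice.

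Ptprc encodes CD45, a phosphatase carried by all nucleated blood-derived cells. At room temperature it stood at 1.78, 1.30, 1.53, 1.01 and 0.87 log2(TPM + 1) in young replicates 1 to 5 and at 2.07, 1.83, 0.92, 1.30 and 1.72 in old replicates 1 to 5. In the cold it was 0.98, 0.57, 0.76, 0.51 and 0.98 in young and 2.15, 1.88, 0.99 and 0.89 in old mice. The groups overlapped at both temperatures, and the 2 highest old cold values were those of the low Gm20594 libraries. The difference between old and young was 0.27 (SE 0.25) at room temperature, 0.72 (SE 0.28) in the cold and 0.49 (SE 0.19, limma adjusted p = 0.619) over both.

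Among macrophage markers, 11 of 11 analysed had higher means in old mice over both temperatures, with a median difference of 0.46, and 3 of them (Lyz2, Cd163 and Itgam) passed 0.25. Lyz2 stood at 5.53, 5.27, 4.86, 4.29 and 4.16 log2(TPM + 1) in young and at 6.23, 5.49, 4.97, 5.49 and 5.92 in old mice at room temperature. In the cold it was 4.72, 3.79, 4.18, 3.43 and 4.79 in young and 6.54, 5.91, 4.46 and 5.77 in old mice. There, 3 of 4 old libraries lay above every young library, with old replicate 3 inside the young range. The difference over both temperatures was 1.14 (SE 0.28, limma adjusted p = 0.159), and it was 0.80 (SE 0.32) at room temperature and 1.48 (SE 0.45) in the cold.

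Cd163 separated the ages at room temperature. Its values were 1.65, 1.53, 1.37, 1.04 and 1.40 log2(TPM + 1) in young mice and 2.37, 1.89, 3.07, 2.06 and 2.14 in old mice, so every old library was above every young one. In the cold the young libraries stood at 2.02, 2.13, 2.02, 1.75 and 2.11 and the old at 2.73, 2.96, 2.45 and 1.83, overlapping through old replicate 4. The old minus young difference was 0.91 (SE 0.21, limma adjusted p = 0.254) at room temperature, 0.49 (SE 0.21) in the cold and 0.70 (SE 0.16, limma adjusted p = 0.113) over both. Mrc1 was the other marker without overlap at room temperature, at 1.88 to 2.71 in young and 2.78 to 3.06 in old mice, a difference of 0.48 (SE 0.16, limma adjusted p = 0.425). In the cold its groups overlapped (1.83 to 2.97 in young, 2.10 to 3.25 in old). Of all genes tested at room temperature, 1.13% had every old library above every young library, against these 2 of 32 markers.

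Itgam, the CD11b integrin chain shared by macrophages, monocytes and neutrophils, was at 0.74, 0.73, 0.54, 0.50 and 0.41 log2(TPM + 1) in young and 1.14, 0.999, 1.05, 0.67 and 1.47 in old mice at room temperature. In the cold the values were 0.88, 0.48, 0.83, 0.47 and 0.85 in young and 1.57, 1.25, 0.84 and 0.86 in old mice. Its age difference was of like size at both temperatures, 0.48 (SE 0.14) and 0.43 (SE 0.18), and 0.46 (SE 0.11, limma adjusted p = 0.158) over both. Csf1r was at 1.73 to 2.41 in young and 2.08 to 2.81 in old mice at room temperature and at 1.36 to 2.05 and 1.86 to 2.72 in the cold, a difference of 0.50 over both (SE 0.15, limma adjusted p = 0.355). Adgre1, which encodes F4/80, differed by 0.65 (SE 0.21, limma adjusted p = 0.422). Clec10a, a galactose-binding lectin of macrophages and dendritic cells, differed by 0.58 (SE 0.18), with old room temperature replicates 1, 3 and 4 at 1.85 to 2.15 and replicates 2 and 5 at 0.97 and 1.10, inside the young range of 0.71 to 1.17.

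The other macrophage markers were closer. Cd14, a co-receptor for bacterial lipopolysaccharide, differed by -0.10 (SE 0.21) at room temperature and 0.67 (SE 0.29) in the cold, and old cold replicate 3 was the highest library at 2.77. Mertk, a receptor for the clearance of apoptotic cells, was 0.31 higher in old mice at room temperature (SE 0.16) and 0.0097 higher in the cold (SE 0.17). Itgax, the CD11c integrin chain, and Fcgr1, the high-affinity IgG receptor CD64, rested on 105 and 155 reads over all libraries and differed by 0.17 (SE 0.08) and 0.14 (SE 0.15) over both temperatures.

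**Figure D2:**
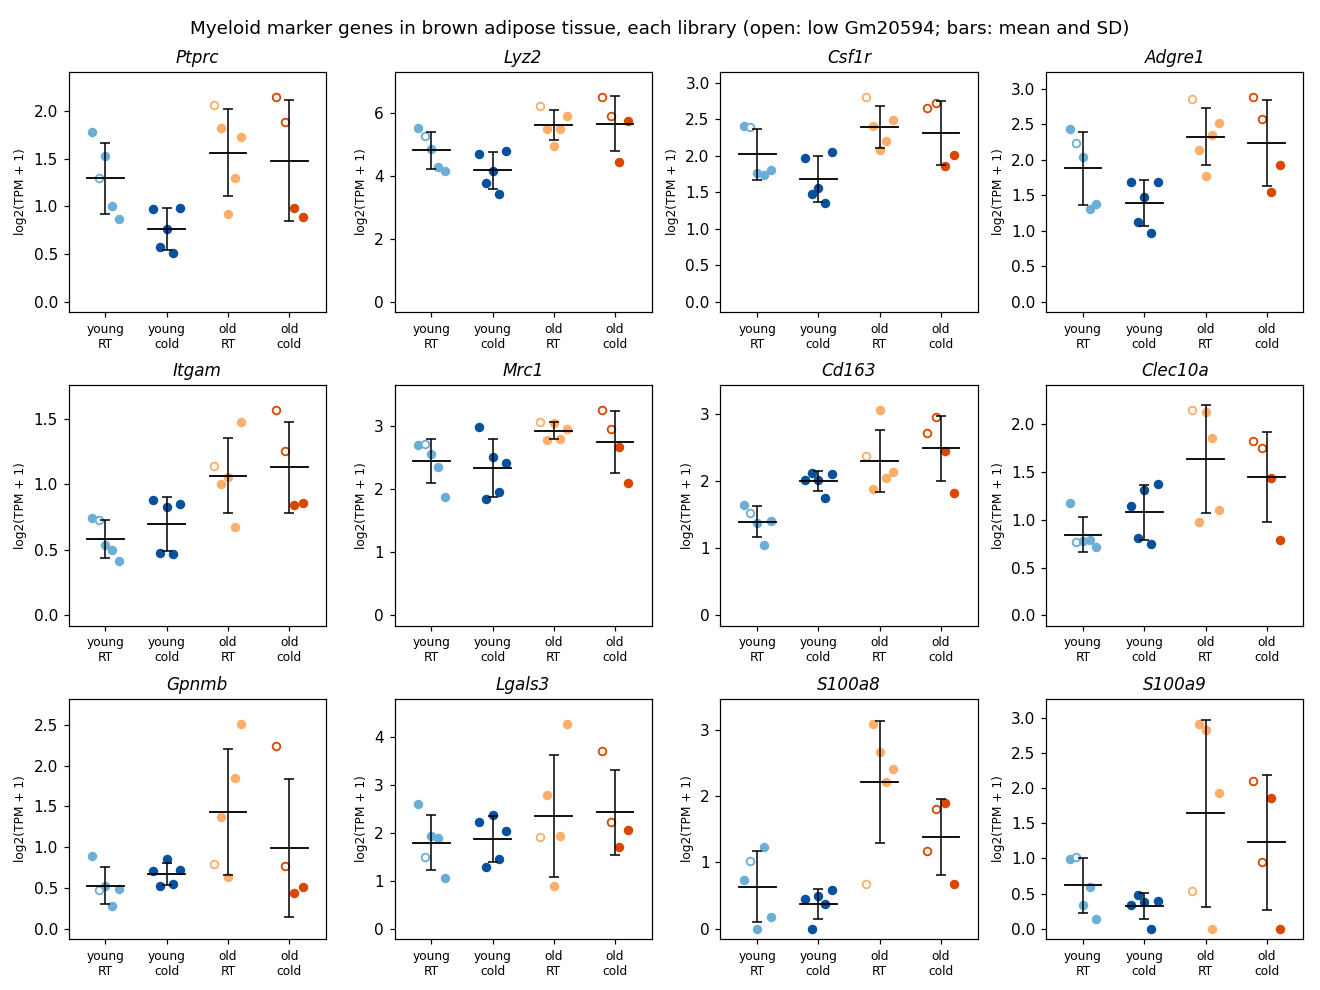
Level of Ptprc and 11 myeloid markers in log2(TPM + 1) for each of the 19 libraries, by group. Points are libraries, open where Gm20594 was low, and bars give the mean and SD. Cd163 in old mice at room temperature lies between 1.89 and 3.07, above the young range of 1.04 to 1.65, while Gpnmb and Lgals3 are spread widely within the old groups.

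Lipid-associated macrophages take up fat and dead adipocytes in obese fat tissue, and Trem2, Gpnmb and Lgals3 mark them. All 3 had higher means in old mice at both temperatures, and none was called, while without the low Gm20594 libraries Gpnmb and Lgals3 had lower means in old mice in the cold. Gpnmb, a membrane glycoprotein of phagocytes, was at 0.89, 0.48, 0.52, 0.27 and 0.49 log2(TPM + 1) in young and 0.79, 1.38, 0.64, 1.85 and 2.52 in old mice at room temperature. In the cold it was 0.70, 0.52, 0.86, 0.54 and 0.72 in young and 2.25, 0.77, 0.44 and 0.52 in old mice. The old mean was thus raised by a few libraries, old room temperature replicates 4 and 5 and old cold replicate 1, with others inside the young range. The same old room temperature replicate 5 and old cold replicate 1 were highest for Lgals3, the galactose-binding galectin-3, at 4.28 and 3.72, where the other 17 libraries lay between 0.89 and 2.79. Across the 19 libraries Gpnmb and Lgals3 correlated by 0.82 (Pearson's r, a description over libraries that share groups and kinds). Trem2, a lipid-sensing receptor, was at 0 in 5 of the 19 libraries and highest in the same pair, at 0.66 and 0.53. Differences over both temperatures were 0.61 (SE 0.25) for Gpnmb, 0.55 (SE 0.38) for Lgals3 and 0.18 (SE 0.08) for Trem2, with limma adjusted p from 0.693 to 0.985.

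S100a8 and S100a9 encode the paired subunits of calprotectin, a calcium- and zinc-binding protein that neutrophils and monocytes carry in bulk. They lie close together on mouse chromosome 3, S100a8 on the plus strand and S100a9 on the minus strand. These are the only 2 granulocyte markers, and with Lyz2 they showed the largest mean age differences of all markers over both temperatures. The 250 bases before their RefSeq starts (GRCm38.p6) are shown because the genes are neighbours whose levels followed each other across libraries, and those of Itgam because it had the other age difference below 0.25 with motif letters in this window. S100a8 is chr3:90668821-90669070 on the plus strand, S100a9 is chr3:90695722-90695971 on the minus strand and Itgam is chr7:128062390-128062639 on the plus strand, each written 5′ to 3′ in the direction of its gene. Capitals mark matches to the letters GAGGAAG, a core to which the myeloid factor PU.1 binds (CTTCCTC on the opposite strand), or to TTGCNNAA, letters to which C/EBP factors bind.
S100a8: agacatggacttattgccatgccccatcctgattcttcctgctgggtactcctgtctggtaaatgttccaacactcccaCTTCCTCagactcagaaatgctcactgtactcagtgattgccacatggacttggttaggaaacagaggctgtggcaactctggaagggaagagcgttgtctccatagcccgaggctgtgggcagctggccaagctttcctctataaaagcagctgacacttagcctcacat
S100a9: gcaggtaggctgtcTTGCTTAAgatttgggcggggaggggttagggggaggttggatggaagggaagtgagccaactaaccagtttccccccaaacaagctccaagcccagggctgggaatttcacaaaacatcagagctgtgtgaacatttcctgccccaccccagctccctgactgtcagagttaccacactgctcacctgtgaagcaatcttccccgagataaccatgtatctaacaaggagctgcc
Itgam: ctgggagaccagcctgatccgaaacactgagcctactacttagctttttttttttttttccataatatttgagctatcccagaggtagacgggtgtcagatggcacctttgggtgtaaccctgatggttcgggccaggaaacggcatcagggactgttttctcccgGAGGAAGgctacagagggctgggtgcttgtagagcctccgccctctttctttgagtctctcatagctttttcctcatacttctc

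The S100a8 window holds the PU.1 letters 171 to 165 bases before the start, on the opposite strand, the S100a9 window holds the C/EBP letters 236 to 229 bases before it, and the Itgam window holds the PU.1 letters 84 to 78 bases before it. Of the 24 markers with a window in the RefSeq table, 5 hold the PU.1 letters (S100a8, Itgam, Mrc1, Fcgr1 and Trem2, 20.8%) and 2 the C/EBP letters (S100a9 and Cd8a, 8.33%), against 10.6% and 9.56% of all 32851 windows of that length. Both strands were searched, and no match of one motif overlapped a match of the other in the markers' windows. A match is a description of the letters and says nothing on binding.

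S100a8 was at 0.73, 1.03, 0, 1.23 and 0.18 log2(TPM + 1) in young and 0.67, 3.09, 2.67, 2.21 and 2.40 in old mice at room temperature. In the cold it was 0.44, 0, 0.49, 0.37 and 0.59 in young and 1.17, 1.81, 1.90 and 0.68 in old mice. In the cold every old library was above every young library, and at room temperature 4 of 5 were, with old replicate 1 inside the young range. The separation in the cold depends on 1 read, that of old replicate 4 (0.68), against 6 reads in young replicate 5 (0.59). The difference was 1.58 (SE 0.44, limma adjusted p = 0.331) at room temperature, 1.01 (SE 0.26, limma adjusted p = 0.456) in the cold and 1.29 (SE 0.28, limma adjusted p = 0.0944) over both. These values rest on 18 reads in the 10 young and 81 in the 9 old libraries, although the young libraries were on the whole deeper. S100a9 was at 0.99, 1.03, 0.34, 0.59 and 0.14 in young and 0.53, 2.92, 2.82, 0 and 1.93 in old mice at room temperature, and at 0.34, 0.48, 0.38, 0 and 0.40 in young and 2.10, 0.95, 1.85 and 0 in old mice in the cold. It followed S100a8 across libraries (r = 0.76, n = 19), except that it was at 0 in old room temperature replicate 4, old cold replicate 4 and young cold replicate 4, where S100a8 was above 0. Its difference over both temperatures was 0.96 (SE 0.37, limma adjusted p = 0.616).

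Erythroid genes also had higher means in old mice. Those tested, Hba-a2, an alpha-globin, and Alas2, the first enzyme of haem synthesis in red cell precursors, stood 0.65 (SE 0.23) and 0.61 (SE 0.19) higher in old mice over both temperatures, both at an unadjusted p under 0.05 and neither called. Their list, of which 2 of 5 genes were tested, summed to 34.0 to 54.9 TPM in young and 26.3 to 107 TPM in old mice at room temperature and to 30.1 to 52.4 and 53.1 to 73.0 TPM in the cold. The old room temperature library with the lowest erythroid sum, replicate 1, was also the one with the lowest S100a8. The part of blood in the granulocyte result was not tested. Of 10 further neutrophil genes, 8 had higher means in old mice over both temperatures, 3 at an unadjusted p under 0.05, and 0 were called. The median difference of the list was only 0.026, with a range of -0.071 to 0.25. Mmp9, a matrix protease, stood at 0.25 (SE 0.09) and Retnlg, a secreted protein of neutrophils, at 0.21 (SE 0.08). At room temperature the median was 0.096, with 3 higher at an unadjusted p under 0.05. In the cold it was 0.036, with 0 at that threshold and 3 of 9 genes lower.

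**Figure D3:**
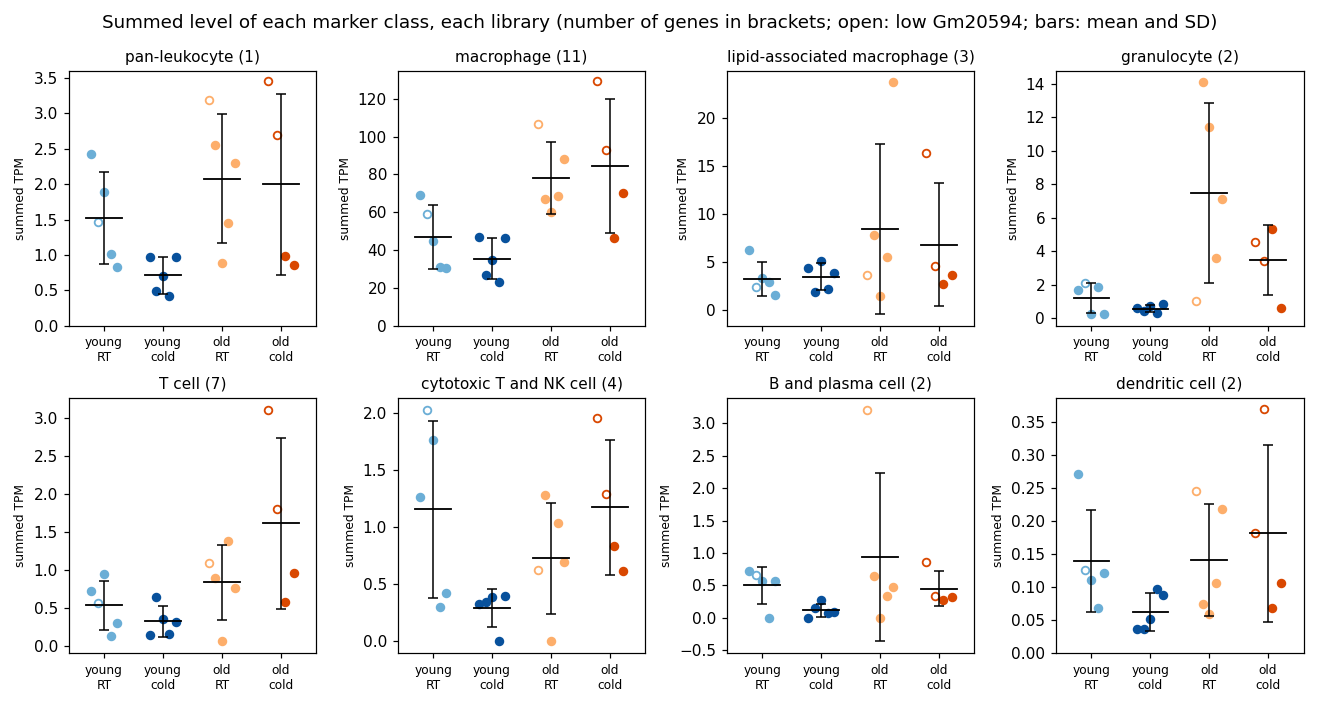
Summed TPM of the markers of each cell class in each library, by group, with the number of genes summed in brackets. Points are libraries, open where Gm20594 was low, and bars give the mean and SD, which can reach below 0. The granulocyte sum reaches 14.1 TPM in old mice at room temperature and reaches at most 2.07 TPM in young mice, and the highest T cell sum, 3.11 TPM, is an old cold low Gm20594 library.

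T cell markers were few in reads, with higher means in old mice. Over both temperatures 7 of 7 had higher means in old mice, by a median of 0.14, with 0 called and 3 at an unadjusted p under 0.05 (Cd3d, Cd3g and Cd8b1). Cd3d, a chain of the CD3 complex that carries the T cell receptor's signal, was at 0 in 4 of 5 young cold libraries and 0.04 in the other, against 0.80, 0.45, 0 and 0.44 log2(TPM + 1) in old cold replicates 1 to 4. At room temperature it was 0.26, 0, 0.27, 0 and 0 in young and 0.43, 0.30, 0, 0 and 0.16 in old mice. Young mice had 5 reads of Cd3d in all and old mice 15, and the difference was 0.07 (SE 0.10) at room temperature and 0.42 (SE 0.14, limma adjusted p = 0.683) in the cold. Cd3g and Cd3e, its partner chains beside it on chromosome 9, differed by 0.24 (SE 0.09) and 0.14 (SE 0.08) over both temperatures.

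The co-receptors mark the main kinds of T cell. Cd8b1, a CD8 chain of cytotoxic T cells, was 0.36 (SE 0.15) higher in old mice in the cold, where its largest values, 0.76 and 0.60, were in the low Gm20594 replicates 1 and 2, and 0.03 (SE 0.09) higher at room temperature. Cd8a, the other chain, differed by 0.07 (SE 0.03) over both. Cd4, the co-receptor of helper T cells, differed by -0.09 (SE 0.07) at room temperature and 0.11 (SE 0.06) in the cold, and its sign over both temperatures (0.01, SE 0.05) reversed without the low Gm20594 libraries. Foxp3, the factor that defines regulatory T cells, was above 0 in every library at 0.04 to 0.24 and differed by 0.03 (SE 0.03). Of 12 further T cell receptor signalling genes tested, 10 had higher means in old mice over both temperatures and 0 were called, and of 4 other regulatory T cell genes 0 had a higher mean.

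Of the cytotoxic markers, Gzma differed between the ages in opposite directions at the 2 temperatures. It encodes granzyme A, a protease that killer cells release into their targets. At room temperature it was at 0.53, 1.06, 0.70, 0.38 and 0.23 log2(TPM + 1) in young mice and at 0 in old replicates 1 to 4 and 0.24 in replicate 5. In the cold the order was the opposite, with 0, 0, 0.35, 0 and 0.20 in young and 0.64, 0.88, 0.29 and 0.34 in old mice. The old minus young difference was -0.53 (SE 0.14, limma adjusted p = 0.311) at room temperature and 0.43 (SE 0.14, limma adjusted p = 0.654) in the cold. The interaction of age and temperature was 0.96 (SE 0.20, limma adjusted p = 0.243). It passed 0.25, as 0.059% of the 16957 genes did in that direction, and not 0.05. These values rest on 36 reads in all, 25 in young and 11 in old mice, and the highest library held 7.

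Gzmb, granzyme B, had every old library above every young library in the cold (0.43, 0.23, 0.27 and 0.22 against 0, 0.20, 0.08, 0 and 0.03), a difference of 0.23 (SE 0.06, limma adjusted p = 0.512) on 4 young and 7 old reads. With S100a8 it was 1 of 2 markers without overlap there, where 0.967% of all genes had every old library above every young library. At room temperature it differed by 0.02 (SE 0.16). Nkg7, a granule protein, and Klrd1, the NK receptor chain CD94, differed by 0.04 (SE 0.09) and 0.16 (SE 0.11) over both temperatures. Of 11 other cytotoxic lymphocyte genes tested, 5 had higher and 6 lower means in old mice.

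Cd79a and Cd79b encode the signalling chains of the B cell receptor. Both were highest in old room temperature replicate 1, at 1.28 and 1.48 log2(TPM + 1) on 9 and 11 reads, where the other 18 libraries lay at or below 0.47 and 0.75. The differences over both temperatures were 0.09 (SE 0.13) and 0.24 (SE 0.15), and that of Cd79a was -0.02 without that library. The same library had the highest sum over the further B cell genes, 2.25 TPM against 0.106 to 1.39 TPM elsewhere. A list for lymph node stroma and follicles stood at 2.87 TPM in it, within 0.74 to 5.43 TPM for all libraries but old room temperature replicate 3, which reached 46.2 TPM through Cxcl13 (5.53 log2(TPM + 1)) while Cd79a and Cd79b were at 0 there. Of the lymph node markers, Ccl19 was at 0 in every library and Clec4g at most at 0.03, and the part of lymph node tissue was not tested. The dendritic cell markers Xcr1, a chemokine receptor of cross-presenting dendritic cells, and Flt3, their growth factor receptor, had at most 0.35 and 0.18 log2(TPM + 1) and differed by 0.06 (SE 0.04) and 0.02 (SE 0.03).

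**Figure D4:**
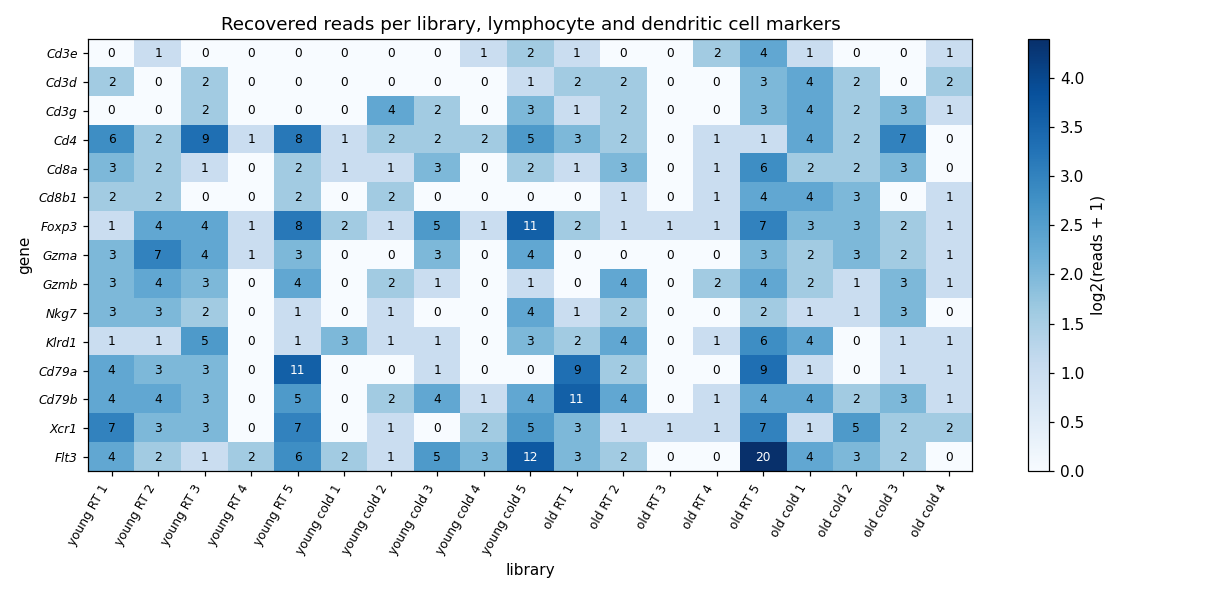
Reads recovered for each lymphocyte and dendritic cell marker in each of the 19 libraries, printed in the cells, with colour as log2(reads + 1). Most cells of the plot hold under 5 reads, and Gzma is at 0 in old room temperature replicates 1 to 4.

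Genes of the same pathways outside the 35 were taken from lists. Of 15 more macrophage genes tested, 14 had higher means in old mice over both temperatures, 0 were called at 0.05 and 4 at 0.25. They included the 3 chains of complement C1q, which macrophages make, C1qc at 0.83 (SE 0.16, limma adjusted p = 0.0614), C1qa at 0.96 (SE 0.19, limma adjusted p = 0.0728) and C1qb at 0.92 (SE 0.19, limma adjusted p = 0.0908). Of 19 chemokines and chemokine receptors, 17 had higher means in old mice, and 1, Ccl8, a chemokine that draws monocytes, was called. Ccl8 stood at 1.01, 1.04, 0.85, 0 and 0.27 log2(TPM + 1) in young and 5.17, 2.12, 3.04, 3.07 and 2.30 in old mice at room temperature and at 0.63, 0.49, 0.70, 0.29 and 0.98 in young and 3.34, 3.85, 2.90 and 2.89 in old mice in the cold. No old library reached down to a young one, and the rise over both temperatures was the largest of the 16957 genes tested. It was 2.57 higher in old mice over both temperatures (SE 0.32, limma adjusted p = 0.00857) and its call over both temperatures held in every alternative run (limma adjusted p from 3.26e-06 to 0.0330). In the cold it was 2.63 higher (SE 0.22, limma adjusted p = 0.0189), a call that was lost with the replicate block (2.72, limma adjusted p = 0.632), with all 4 groups in one fit (limma adjusted p = 0.0739) and without young cold replicate 1, 2, 3 or 4 or old cold replicate 1 (2.55 to 2.65, limma adjusted p from 0.0820 to 0.110). At room temperature it was 2.50 higher (SE 0.54, limma adjusted p = 0.223) and not called. Of 10 genes of the lipid-associated macrophage programme 8 had higher means in old mice, of 9 further B cell genes 6, of 5 plasma cell genes 5, of 8 dendritic cell genes 7 and of 6 mast cell genes 5, with 0 called in these lists. Of 8 inflammatory cytokine genes 7 had higher means and 0 were called, with Tgfb1 at 0.41 (SE 0.11, limma adjusted p = 0.200).

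In young mice a few markers changed in the cold. Of the 32 markers, 2 rose (Mertk and Cd163) and 2 fell (Cd79a and Gzma) at an adjusted p under 0.05, where 9.61% of the 16501 genes tested rose and 16.3% fell. At 0.25 the counts were 2 higher and 11 lower, where 16.2% of all genes were higher and 28.1% lower. The share of markers called at 0.05 was therefore below that of all genes. Means were higher in the cold for 8 markers and lower for 24, with a median of -0.10 against -0.02 over all genes. With each library centred on its median, which moves the median of all genes to 0.12, the split turned to 19 higher and 13 lower with a median of 0.04, and the counts at 0.25 to 10 higher and 6 lower.

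Mertk rose from 1.34, 1.23, 1.14, 1.26 and 1.38 log2(TPM + 1) at room temperature to 2.17, 1.62, 1.82, 1.83 and 1.70 in the cold in young mice, without overlap, by 0.56 (SE 0.10, limma adjusted p = 0.00258). Cd163, with the values given above, rose by 0.61 (SE 0.12, limma adjusted p = 0.00428), also without overlap. Cd79a fell by 0.31 (SE 0.08, limma adjusted p = 0.0213), from 0.44, 0.35, 0.36, 0 and 0.47 to 0.08 in replicate 3 and 0 in the other 4. Gzma fell by 0.47 (SE 0.15, limma adjusted p = 0.0446), with its cold values overlapping those at room temperature. The cold Cd79a values rest on 1 read. Gzma also lost its call with the replicate block (limma adjusted p = 0.0881), with median centring (0.0763), with the kind of library as covariate (0.0549) and without the low Gm20594 libraries (0.0531). Mertk and Cd163 were called with each library left out in turn, but Cd163 was not called with all 4 groups in one fit (limma adjusted p = 0.0890). The falls went from 2 to 0 without young room temperature replicate 1, to 7 without young room temperature replicate 4, the shallowest young library, and to 3 without young room temperature replicate 5, and Gzma lost its call (1 fall) without young room temperature replicate 2 or 3 or young cold replicate 1, 2, 4 or 5. With median centring 3 markers were higher (Cd163, Mertk and Clec10a) and 0 lower.

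Ptprc, at -0.54 (SE 0.18, limma adjusted p = 0.0572), Lyz2 at -0.64 (SE 0.35) and Cd14 at -0.46 (SE 0.22) were lower in the cold in young mice without being called. Ptprc passed 0.05 with a pseudocount of 0.1, a mean of at least 1 TPM, library weights, a prior with trend and robust fitting, voom, and without libraries under 1000000 reads. Cd4 was lower in every cold library than in every room temperature library (0.05 to 0.08 against 0.09 to 0.39), a difference of -0.13 (SE 0.06, limma adjusted p = 0.125). For Cd4, as for Mertk and Cd163, the share of all genes without overlap between the temperatures was not counted. The young cold libraries are the same ones that form the young side of the age comparison in the cold, so the age and temperature values of a marker share them.

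In old mice the cold called 0 markers by limma at 0.05 or 0.25, where 0.0253% and 1.43% of the 15833 genes tested were called, and 0 by voom. Means were higher in the cold for 16 markers and lower for 16. That split depended on the processing, with 24 higher under median centring, 22 under quantile normalization and 20 with weights per library. Fewer were higher with voom (14), with the kind of library as covariate (12) and without the low Gm20594 libraries (7). At an unadjusted p under 0.05, Gzma (0.49, SE 0.13, limma adjusted p = 0.264) and Cd3g (0.36, SE 0.15) were higher and 0 lower. In simulated libraries with normal noise and no changed genes, 5.02% of genes passed in this comparison, a share that the threshold itself sets. It is not the share in these data, and Gzma and Cd3g are not read as a result. Gzma was the 1 marker whose cold libraries all lay above those at room temperature. It did so on 2, 3, 2 and 1 reads in old cold replicates 1 to 4, against 3 reads in old room temperature replicate 5. The share of all genes without such overlap was not counted for this comparison. Mertk and Cd163 differed by 0.26 (SE 0.22) and 0.19 (SE 0.30). S100a8 differed by -0.82 (SE 0.49), with groups that overlapped.

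Whether the response to cold differed between the ages was tested by the interaction over all 19 libraries. It called 0 markers at 0.05 by limma (0.0118% of the 16957 genes) and 0 by voom, and Gzma at 0.25. At an unadjusted p under 0.05 it was above 0 for Gzma, Cd14 (0.78, SE 0.36) and Cd4 (0.20, SE 0.09) and below 0 for 0 markers. In simulated libraries with normal noise and no changed genes, 4.71% of genes passed for the interaction, a share that the threshold itself sets. It is not the share in these data, and these 3 markers are not read as a result. For Cd163 and Mertk, called in young and not in old mice, it was -0.42 (SE 0.32) and -0.30 (SE 0.24), with limma adjusted p = 0.998 for both, so a difference between the ages in their response to cold was not shown.

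**Figure D5:**
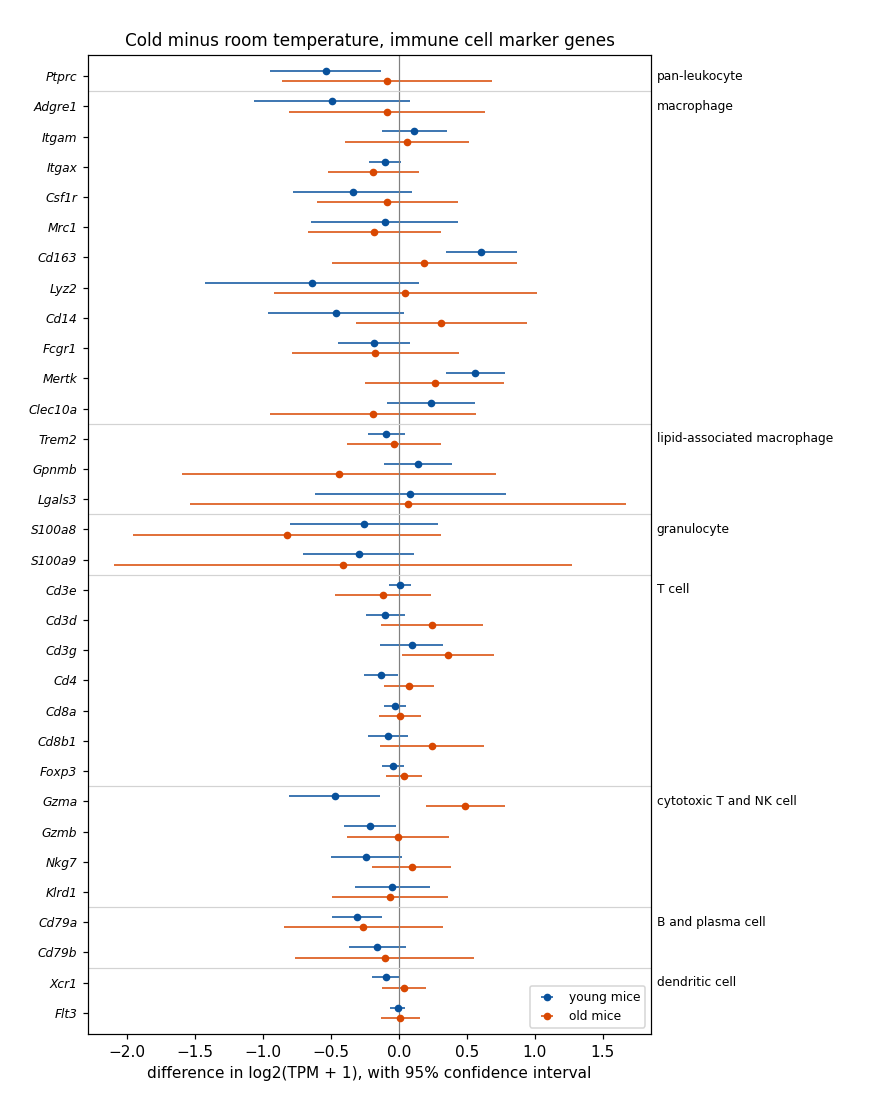
Difference between cold and room temperature in log2(TPM + 1) for the 32 markers, with 95% confidence intervals, in young (blue) and old mice (orange). Cd163 and Mertk lie to the right of 0 in young mice with intervals that stay clear of it, and Gzma lies to the left in young (-0.47) and to the right in old mice (0.49).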

How the data were processed

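BAT of 19 mice was profiled by RNA-seq (young cold n = 5, young room temperature n = 5, old cold n = 4, old room temperature n = 5, grouped by the labels). For alignment the authors used Rsubread, then edgeR and limma for scaling, and they deposited log2 values, found from their low steps to be log2(TPM + 1). The submitters' processing notes name limma 3.20.9 and R 3.2.2. A human assembly is named as the reference in the methods although mouse genes are listed, and the build used is unresolved. Labels give TRIzol for the extraction and the methods another kit. The labels call young room temperature replicate 2 paired-end and the rest single-end. Values of the table summed to between 128942 and 211321 TPM per library. Columns of values not mapped to a sample: 0.

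Differences were fitted with limma 3.58.1 in R 4.3.3 to the deposited values, after removing genes at 0 in all libraries fitted. Each pair of groups was fitted on its own libraries, and age over both temperatures and the interaction on all 19. Whole reads were recovered within 0.02 reads from the steps of low TPM values. In a simulation on 16957 genes, of those changed by 1.5 on the log2 scale 97.5% were recovered over both temperatures, 72% for age at room temperature, 62.5% for age in the cold, 80% for cold in young mice, 54% for cold in old mice and 52.5% for the interaction. The changed genes were drawn only from those with higher mean levels, and the simulated noise was normal. These shares therefore do not apply to the 22 markers with medians under 1 TPM, or to differences smaller than 1.5. Python 3.11.15 with pandas 2.3.3 and matplotlib 3.10.9 was used for reads, sequences and plots.

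The members and gene lists were chosen with earlier results of these data known. All 32 markers analysed are named. Of each further list up to 3 of the genes called over both temperatures were to be named, and others named (C1q chains, Tgfb1, Mmp9, Retnlg, erythroid genes and Cxcl13) were picked once values were known. The deviations of same-numbered libraries from their group means correlated by 0.101 to 0.220 in the 4 pairs of old and young cold libraries, so the numbers were taken to pair these. Elsewhere they did so less regularly (old and young at room temperature -0.211 to 0.232, cold and room temperature -0.027 to 0.374 in old and -0.155 to 0.196 in young mice). The main fits did not use this pairing, and the replicate block was the alternative that did. No marker was called with age in the main fits or with the replicate block, so the block had no such call to change. Ccl8 in the cold lost its call with it. Alternatives were a threshold of 0.25, a pseudocount of 0.1, a mean of at least 1 TPM, quantile normalization, median centring, library weights, a prior with trend and robust fitting, the replicate block, the kind of library as covariate or left out, all 4 groups in one fit and each library left out. A further 2 were added after seeing the data, limma's voom on recovered reads and leaving out the 4 libraries under 1000000 reads. Each p-value sets a difference against the spread between these samples.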

Additional observations from a re-analysis of the deposited data

Results flagged for a closer look

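Of 128 groups of 4 or 5 libraries, 1 per marker and group, 14 (10.9%) held a library far from the others by Dixon's criterion, where chance flags about 1 in 20 for normally distributed values. Where all libraries but a single one were at 0, any read in that library forces a flag. This was so for Cd3e, Cd3d, Cd3g, Cd8b1, Gzma and Cd79a in young cold replicate 3, so the 2 rates cannot be compared. Values are in log2(TPM + 1). Far below the rest of their group were Itgax at 0 in old room temperature replicate 3, Cd163 at 1.75 in young cold replicate 4, S100a9 at 0 in young cold replicate 4, Nkg7 at 0 in old cold replicate 4 and Cd79a at 0 in young room temperature replicate 4. Far above were Clec10a at 1.17 in young room temperature replicate 1, Cd3e at 0.13 in young room temperature replicate 2, Cd3d at 0.036 in young cold replicate 5, Cd3g at 0.33 in young room temperature replicate 3, Cd8b1 at 0.20 in young cold replicate 2 and Gzma at 0.24 in old room temperature replicate 5. Klrd1 was high at 0.62 in young room temperature replicate 3 and at 0.41 in young cold replicate 1, and Cd79a at 0.077 in young cold replicate 3. Apart from Cd163 (92 reads) and Clec10a (28 reads), the libraries concerned held at most 5 reads of the gene.

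Gzma had an interaction of age and temperature of 0.96 (SE 0.20, limma adjusted p = 0.243), noted because its adjusted p was under 0.25 and not called at 0.05. It was not below 0.25 with the replicate block (limma adjusted p = 0.322) or with the kind of library as covariate (0.279). With single libraries left out, it stayed below 0.25 only without old room temperature replicate 1, old cold replicate 4 or young room temperature replicate 5. Leaving out any other library lost it. Over the alternatives its limma adjusted p ranged from 0.0305 with weights per library to 0.473 without young cold replicate 4. Without the low Gm20594 libraries the interaction was 0.61 (limma adjusted p = 0.0781).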

How the results depend on the processing

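Counts of markers called at an adjusted p under 0.05 changed as follows. For age at room temperature, voom on recovered reads gave 2 higher instead of 0. For age in the cold, median centring and leaving out libraries under 1000000 reads each gave 1 (S100a8), and leaving out single libraries 0 to 1. All genes called higher there went from 1 to 61 with median centring and to 120 without libraries under 1000000 reads. For age over both temperatures, the count of 0 higher became 4 at a threshold of 0.25, with median centring, with quantile normalization and with voom, 3 with a mean of at least 1 TPM and without libraries under 1000000 reads, 1 with a trended and robust prior and without low Gm20594 libraries, and 9 with weights per library, where all genes called higher went from 14 to 666. It was 0 to 3 with single libraries left out (3 without old cold replicate 4, 1 without old room temperature replicate 1). All genes called higher over both temperatures were 73 with median centring, 121 with quantile normalization and 260 without libraries under 1000000 reads. They were 37 of 8203 with a mean of at least 1 TPM, 34 with a trended and robust prior and 13 without low Gm20594 libraries. For cold in young mice, the 2 lower markers became 11 at a threshold of 0.25, 7 with voom and without libraries under 1000000 reads, 5 with weights, 3 with a pseudocount of 0.1 and with a trended and robust prior (Ptprc added in both), 0 with median centring, 1 with a mean of at least 1 TPM, with the replicate block, without low Gm20594 libraries, with the kind of library as covariate and with all 4 groups in one fit (which also gave 1 higher, Mertk, with Cd163 lost), and 0 to 7 with single libraries left out. All genes called lower for cold in young mice went from 2694 in the main fit to 3271 of 16264 with voom. They were 3141 with weights and 2980 without libraries under 1000000 reads. The replicate block gave 0 markers in each age comparison, in old mice and for the interaction. For cold in old mice, 1 was higher with median centring or weights and 2 with quantile normalization. All genes called higher there went from 3 to 427 with median centring, 725 with weights and 375 with quantile normalization. For the interaction, the count became 1 (Gzma) at 0.25, with median centring, quantile normalization and weights. All genes called higher for the interaction went from 0 to 15 with median centring, 16 with quantile normalization and 35 with weights. For cold in young mice, median centring also moved the split of all genes called at 0.05 from 1585 higher and 2694 lower to 3468 and 1856, with the median of all genes going from -0.02 to 0.12.

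Signs reversed as follows, for no called difference. Over both temperatures, Gzma became 0.054 with weights and 0.29 with voom. Without low Gm20594 libraries Fcgr1 became -0.025, Cd4 -0.049, Foxp3 -0.00994, Cd79a -0.0040 and Flt3 -0.023. With the kind of library as covariate Cd4 became -0.00336 and Nkg7 -0.00861. With single libraries left out Cd4 ranged from -0.012 to 0.041, Gzma from -0.11 to 0.0070 and Cd79a from -0.018 to 0.14. For cold in young mice, median centring turned 11 of 32 markers, among them Itgax to 0.036, Cd4 to 0.0081 and Xcr1 to 0.043. Without low Gm20594 libraries 7 markers turned for age in the cold and 9 for cold in old mice. The causes were not tested. The number of libraries with low depth (4 under 1000000 reads) limits the lymphocyte markers. With voom the median of all genes was 0.07 for age at room temperature and over both temperatures, 0.05 for age in the cold, -0.28 for cold in young and -0.24 for cold in old mice.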
